A study of Mus musculus with 5 samples.

Results

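The comparison reported here sets 1 library of C2C12 cells given a short hairpin RNA against PKM2 (shPKM2) beside 1 library of C2C12 cells given a control hairpin (shControl), both for 72 h. The libraries were picked by their labels, 2 of 5 in all, and every one of the 23361 genes in the deposited table was read in both. C2C12 is an established line of mouse myoblasts, the dividing precursors of muscle fibres, and all cultures were proliferating in high-glucose medium with serum. The 3 other libraries serve as context: vehicle, shikonin and TEPP-46, each given for 8 h. The sequences of the hairpins, how they were delivered, and whether the cells were pooled or clonal are not known from the labels. There was 1 library per condition, so no difference below has a replicate check, no test was made, and a value describes these libraries. The vehicle library differs from the hairpin libraries both in carrying no hairpin and in its 8 h against 72 h, and these cannot be told apart.

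Pyruvate kinase makes pyruvate and ATP in the last step of glycolysis. The Pkm gene encodes a muscle form, PKM1, and the form PKM2 that proliferating cells use, by splicing in either of a pair of alternative exons. PKM2 can switch between more and less active assemblies, and its activity bears on how much glucose carbon is left for side branches such as the pentose phosphate pathway, whose NADPH keeps the antioxidant glutathione in its reduced state.

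Myoblast markers were present in both hairpin libraries. Myod1, the founding factor of the muscle lineage, stood at 63.3 FPKM (a read level corrected for transcript length and library depth) with shPKM2 and 57.2 FPKM with shControl. Des, the muscle intermediate filament, stood at 249 FPKM and 311 FPKM, and the myoblast cadherin Cdh15 at 38.9 FPKM and 55.0 FPKM. Of 12 macrophage markers 10 had a mean below 1 FPKM, with Emr1 and C1qa listed at 0 in every library, and the summed level of all 12 was 35.1 FPKM with shPKM2 and 31.6 FPKM with shControl, most of it Cd14. The estimated depth was 26.1 and 23 times 1000000 reads for shPKM2 and shControl.

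Differences are given as log2(FPKM + 1) in shPKM2 minus that in shControl, a scale that understates differences of genes near or below 1 FPKM. The standard error (SE) beside some of them covers the counting of reads alone. Most of the transcriptome lay close to the line of equal levels. The filter on low values, a mean over all 5 libraries of 1 FPKM or more, left 11128 genes. The quartiles of their difference were -0.10 and 0.11, and the 5th and 95th percentiles were -0.31 and 0.31. At least 2-fold higher in shPKM2 were 44 genes (0.395%), and at least 2-fold lower were 25 (0.225%). Short RNA genes (microRNAs, small nucleolar RNAs and others under 300 nt, poorly covered by libraries of polyadenylated RNA) made up 19 and 13 of these. Without them 25 genes (0.226% of 11048) were higher and 12 (0.109%) lower. Of the 25, the protease inhibitor genes Serpinb9g and Serpinb9c were below 1 FPKM in every other library and so passed the filter only through shPKM2. At 1.5-fold, 90 of the longer genes (0.815%) were higher and 74 (0.67%) lower. Between the control libraries, shControl against vehicle, 387 genes (3.48%) were at least 2-fold higher and 74 (0.665%) lower, so the hairpin pair was closer to each other than shControl was to vehicle.

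**Figure D1:**
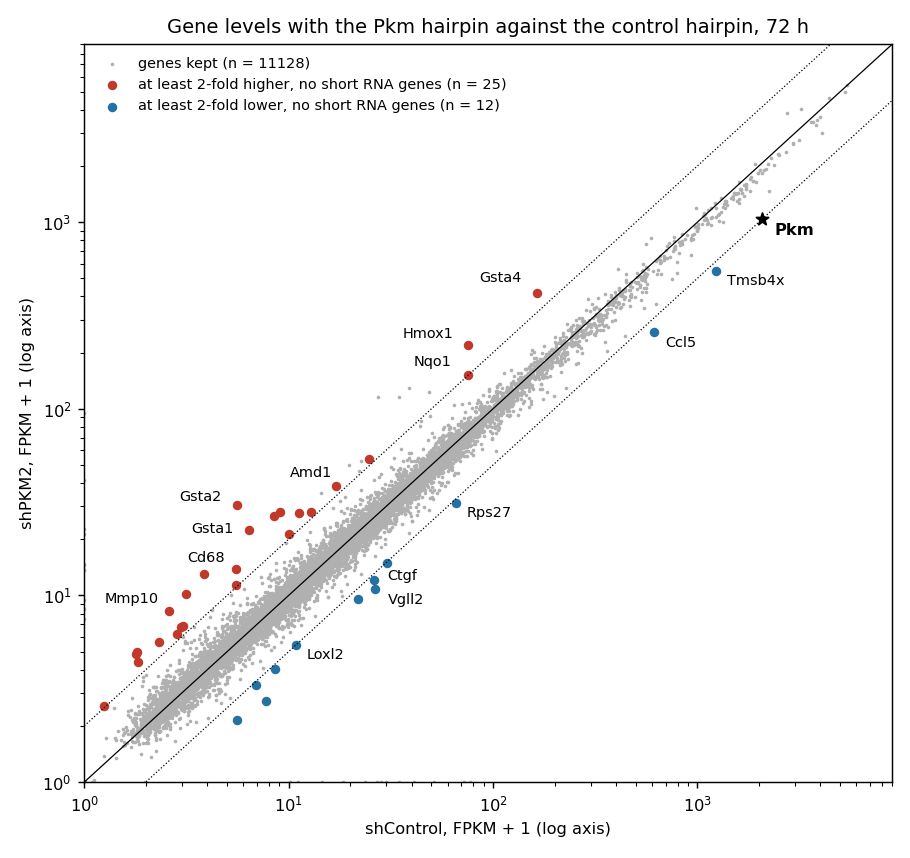
Level of each gene in the shPKM2 library against its level in the shControl library, as FPKM + 1 on log axes, for 11128 genes. The solid line marks equal levels and the dotted lines a 2-fold difference. Red and blue points are the 25 and 12 longer genes past 2-fold, and Pkm (star) lies on the lower dotted line at 1041 FPKM against 2061 FPKM.

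The target of the hairpin came first among the checks. Pkm (chr9:59656368-59679375, GRCm38, plus strand) stood at 1041 FPKM in shPKM2 and 2061 FPKM in shControl, against 1321 FPKM with vehicle and, for shikonin and TEPP-46, 1501 and 1198 FPKM. The shPKM2 value was thus the lowest and the shControl value the highest of the 5, and the difference was -0.98 (counting SE 0.0070). A value per gene does not separate PKM1 from PKM2. Pklr, the pyruvate kinase gene of liver and red cells, was listed at 0 in every library. Genes within 250 kb of Pkm gave no similar drop: Arih1 differed by -0.02, Hexa by 0.07, Parp6 by 0.07, Senp8 by -0.17 and Myo9a by -0.02, while Tmem202, Celf6 and Gramd2 had means below 1 FPKM. The 10 splicing factor genes that govern or accompany the exon choice of Pkm, among them Ptbp1 (0.01), Hnrnpa1 (-0.01), Hnrnpa2b1 (-0.03) and Srsf3 (-0.14), all lay between -0.14 and 0.01.

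Genes of glutathione conjugation and of the response to oxidants made up much of the high end. Of the 20 genes with the highest difference and a mean of 5 FPKM or more, 9 were on the list of targets of NRF2, the factor that switches on antioxidant and detoxifying genes; none of the 20 lowest was. The list held 51 genes, of which 47 passed the filter, 41 were higher and 6 lower in shPKM2, and 8 were at least 2-fold higher; of all genes kept 50.2% were higher, and of the longer ones 0.226% at least 2-fold higher. Its median was 0.40, beside 0.00034 over all genes. The rest of this section takes the list by the roles of its members.

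Glutathione S-transferases, which join glutathione to reactive molecules, had the highest median of all roles examined with more than 1 member, 1.03 over 9 measured genes, 5 of them at least 2-fold higher. Gsta2 stood at 29.5 FPKM in shPKM2 and 4.61 FPKM in shControl, against 8.41 FPKM with vehicle and, for shikonin and TEPP-46, 10.5 and 13.9 FPKM. Its shPKM2 level was the highest and its shControl level the lowest of the 5, a difference of 2.44 (counting SE 0.14). Gsta1 stood at 21.5 FPKM and 5.39 FPKM, and at 10.3, 26.7 and 18.4 FPKM with vehicle, shikonin and TEPP-46. Gsta4, whose product clears the lipid peroxidation product 4-hydroxynonenal, stood at 418 FPKM and 163 FPKM, and at 316, 588 and 538 FPKM in the same 3 libraries. For both genes shControl was the lowest library, and shPKM2 lay between vehicle and the highest. Other members were the microsomal transferases Mgst2 (20.3 FPKM against 9 FPKM) and Mgst1 (10.3 FPKM against 4.53 FPKM) and the mu-class gene Gstm1 (90.8 FPKM against 48.2 FPKM). The neighbouring mu-class genes Gstm2 (-0.13) and Gstm5 (-0.15) and the pi-class gene Gstp1 (0.11) did not share this, so the high values did not extend to the whole enzyme family.

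The alpha-class genes lie side by side on chromosome 9. From Gsta4 (chr9:78182774-78209349) through Gsta1, Gm3776 and Gm10639 to Gsta2 (chr9:78331018-78355788; GRCm38), all 5 expressed transferase genes were higher in shPKM2, with Gm3776 at 11.99 FPKM against 2.87 FPKM (1.75) and Gm10639 at 4 FPKM against 0.805 FPKM (1.47). The genes flanking the cluster differed by less: Fbxo9 by 0.20, Ick by 0.26 and Mb21d1 by 0.24. Gsta1, Gsta2, Gm3776 and Gm10639 are closely similar in sequence, and how reads were split among them is uncertain; Gsta4 is more distinct. Chromosome 9 also carries Pkm and Mmp10, and it held 6 of the 25 longer genes at least 2-fold higher, the 5 of this cluster and Mmp10. That is 24% of the 25, where chromosome 9 carries 618 (5.59%) of all longer genes kept. The near copies of the cluster are not separate counts in this share.

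Glutathione synthesis followed. Gclm and Gclc encode the modifier and catalytic subunits of the rate-limiting ligase, and Slc7a11 brings in cystine as raw material. Gclm stood at 59.7 FPKM in shPKM2 and 34.6 FPKM in shControl, against 66.3, 202 and 88.5 FPKM with vehicle, shikonin and TEPP-46, a difference of 0.77. Gclc stood at 35.6 FPKM and 21.7 FPKM (0.69), and Slc7a11 at 5.24 FPKM and 2.89 FPKM (0.68). Gss (0.24) and Gsr (0.16), for the second synthesis step and for reducing oxidised glutathione, were closer to equal. The role's median was 0.68 with all 5 members higher, and 0.38 with a pseudocount of 5 FPKM. As before, shControl was the lowest library for Gclm, Gclc and Slc7a11, and shPKM2 lay near vehicle.

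Enzymes that reduce or oxidise quinones and carbonyls were mixed, with 8 of 9 measured genes higher and a median of 0.48, or 0.25 without the filter on low values. Aldh3a1, an aldehyde dehydrogenase, stood at 53.1 FPKM with shPKM2 and 23.8 FPKM with shControl, and at 23.9, 36.1 and 28.6 FPKM with vehicle, shikonin and TEPP-46, so only shPKM2 stood apart from vehicle among the hairpin libraries. Nqo1, a quinone reductase and a standard reporter of NRF2 activity, stood at 150 FPKM and 74.1 FPKM, and at 137, 205 and 192 FPKM in the other 3; here shControl was the library that stood apart. Ptgr1 (0.87) and Cbr3 (0.60) were higher and Akr1b8 (0.01) equal. Akr1b3, the aldose reductase of the polyol pathway, was lower at 8.82 FPKM against 14.6 FPKM (-0.67), the opposite of the rest.

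In the haem and iron role all 6 genes were higher, with a median of 0.46. Hmox1, which breaks down haem, stood at 218 FPKM in shPKM2 and 74.4 FPKM in shControl, against 56.9, 1361 and 285 FPKM with vehicle, shikonin and TEPP-46. It was 2.93 times the shControl level and well above vehicle, a difference of 1.54 (counting SE 0.031). Slc48a1, which carries haem out of the lysosome, stood at 104 FPKM and 63.3 FPKM (0.71). The ferritin chains that store the released iron, Fth1 and Ftl1, are among the most abundant messages of the table: Fth1 stood at 3830.2 FPKM against 2735 FPKM (0.49) and Ftl1 at 4041 FPKM against 3228 FPKM (0.32). Outside the NRF2 list, the iron uptake genes Steap3 (0.55) and Tfrc (0.32) were also higher and the sensor Ireb2 (-0.04) was not.

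The thioredoxin branch and the NADPH suppliers differed by less, with medians of 0.23 over 6 genes and 0.15 over 8. Srxn1, which repairs overoxidised peroxiredoxins, stood at 73.4 FPKM against 49.3 FPKM (0.57), and Txnrd1, the thioredoxin reductase, at 160 FPKM against 122 FPKM (0.39), both below their vehicle levels of 94.6 and 246 FPKM. In the pentose phosphate branch Pgd differed by 0.42 and G6pdx by 0.21, but Tkt and Taldo1 by 0.08 each. The export pumps Abcc4 (0.52) and Abcc1 (0.40) were higher. The NRF2 gene itself, Nfe2l2, stood at 81.9 FPKM against 70.9 FPKM (0.21), its inhibitor Keap1 at 26.4 FPKM against 23.1 FPKM (0.19), and the competing repressor Bach1 at 8.21 FPKM against 9.08 FPKM (-0.13). No factor of the NRF2 system reached 1.5-fold, a size that 0.815% of all longer genes reached upward and 0.67% downward. NRF2 is known to be set largely at the protein level, which these data do not show.

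The control differences touch the reading of the list. Since shControl is in both, the knockdown difference and the difference of shControl from vehicle are not independent, and they are given side by side. For Gsta4 they were 1.35 and -0.95, for Nqo1 1.01 and -0.88, for Gclm 0.77 and -0.92, for Ptgr1 0.87 and -0.70, and for Slc48a1 0.71 and -0.62. For these 5 genes the difference of shPKM2 from vehicle ran from -0.15 (Gclm) to 0.40 (Gsta4). For Gsta2 the pair was 2.44 and -0.75, for Hmox1 1.54 and 0.38, for Gstm1 0.90 and -0.15, for Mgst2 1.09 and 0.98 and for Mgst1 1.03 and 1.33; these lay above vehicle by 0.75 to 2.37, as did Aldh3a1, for which both control libraries were alike. With 1 control hairpin, the effect of the Pkm hairpin and that of the control hairpin cannot be told apart.

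**Figure D2:**
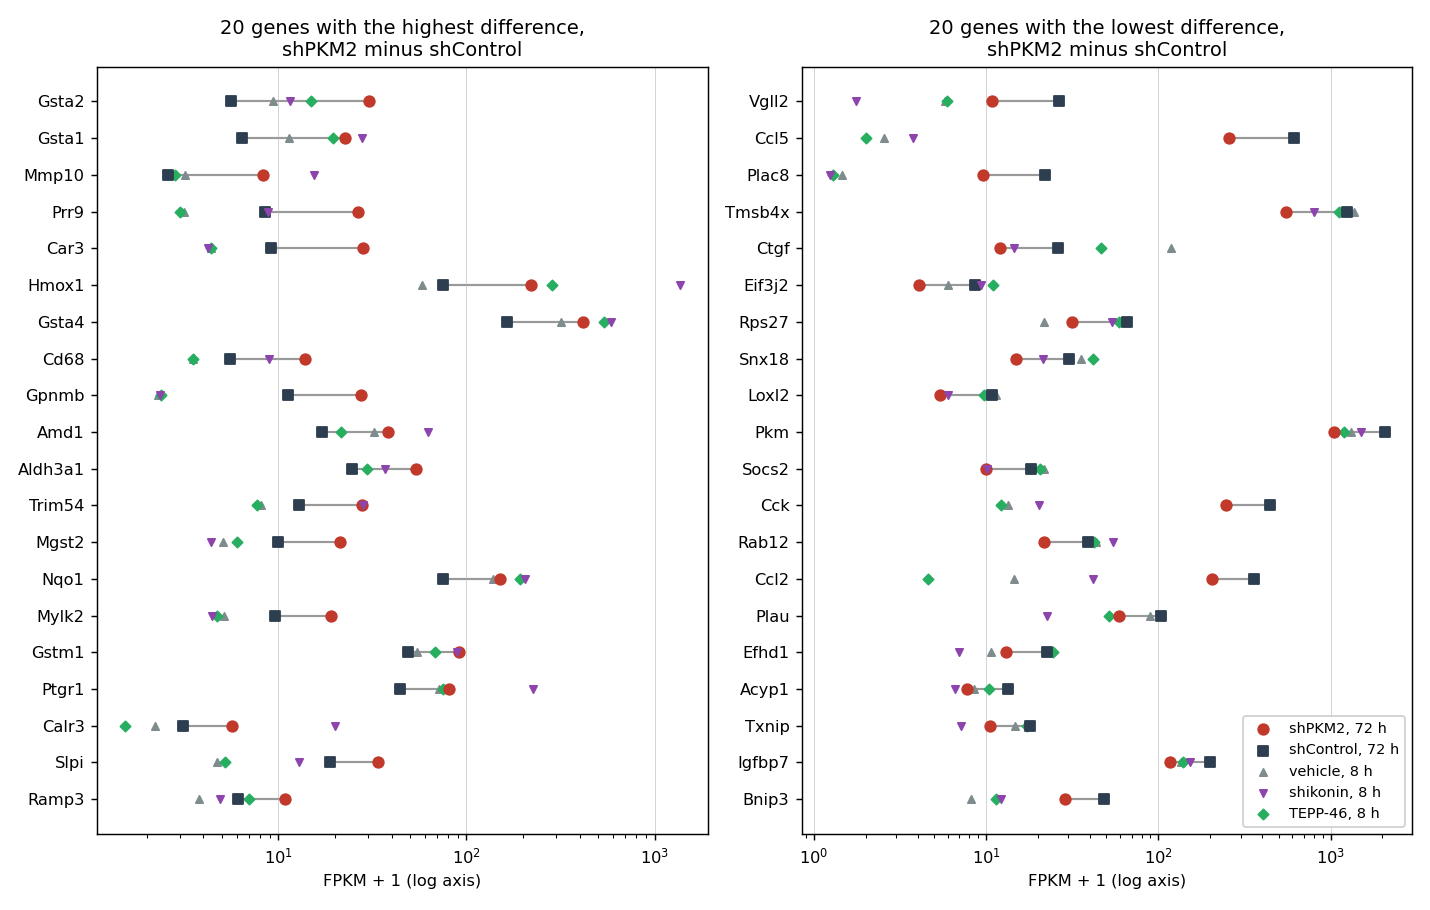
Levels in all 5 libraries, as FPKM + 1 on a log axis, of the 20 genes with the highest (left) and the 20 with the lowest (right) difference among 8464 longer named genes whose mean was 5 FPKM or more. A grey line joins shControl (square) to shPKM2 (circle). All 20 genes on the left lay above vehicle in shPKM2 and 11 were higher there than in any other library, while 12 of the 20 on the right lay below vehicle.

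Promoters of the high genes were searched for short motifs, and those that carry the most frequent match are printed here. AP-1, the dimer of FOS and JUN proteins, binds TGACTCA. In the RefSeq promoter window, 250 bases before to 50 after the gene start, 6 of the 18 longer genes at least 2-fold higher that have such a window (33.3%) held TGACTCA on either strand, as did 16 of 65 (24.6%) at 1.5-fold. The share over all longer genes kept was 4.5% (373 of 8287), and among genes at least 1.5-fold lower it was 2 of 49 (4.08%). The 250 bases upstream of the start, 5′ to 3′ on the gene's strand (RefSeq, GRCm38.p6), are shown for 5 of the 6, with TGACTCA or its reverse complement TGAGTCA in capitals, and for Gclm with its NRF2 element (TGACNNNGC, read on the other strand) in capitals.
Mmp10, chr9:7502092-7502341, plus strand: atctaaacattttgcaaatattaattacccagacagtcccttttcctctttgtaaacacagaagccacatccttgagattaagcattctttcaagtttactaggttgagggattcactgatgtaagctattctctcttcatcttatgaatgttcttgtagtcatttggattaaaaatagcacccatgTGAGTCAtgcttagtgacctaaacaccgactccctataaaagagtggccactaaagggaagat
Prr9, chr3:92123948-92124197, minus strand: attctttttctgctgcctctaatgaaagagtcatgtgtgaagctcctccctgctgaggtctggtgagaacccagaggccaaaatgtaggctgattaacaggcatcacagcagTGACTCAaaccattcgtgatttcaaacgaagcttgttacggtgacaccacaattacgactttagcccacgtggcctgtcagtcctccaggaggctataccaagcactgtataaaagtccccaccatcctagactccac
Cd68, chr11:69666171-69666420, minus strand: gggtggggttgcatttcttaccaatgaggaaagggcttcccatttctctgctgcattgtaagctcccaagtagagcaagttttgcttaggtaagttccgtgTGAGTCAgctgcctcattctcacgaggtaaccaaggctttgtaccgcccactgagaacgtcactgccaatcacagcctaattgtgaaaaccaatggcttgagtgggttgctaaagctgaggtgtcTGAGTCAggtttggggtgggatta
Trim54, chr5:31116362-31116611, plus strand: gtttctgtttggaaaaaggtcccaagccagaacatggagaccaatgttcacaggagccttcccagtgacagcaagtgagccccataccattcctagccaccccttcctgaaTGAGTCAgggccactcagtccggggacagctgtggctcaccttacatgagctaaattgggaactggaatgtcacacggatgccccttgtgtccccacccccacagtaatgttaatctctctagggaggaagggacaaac
Mgst2, chr3:51660929-51661178, plus strand: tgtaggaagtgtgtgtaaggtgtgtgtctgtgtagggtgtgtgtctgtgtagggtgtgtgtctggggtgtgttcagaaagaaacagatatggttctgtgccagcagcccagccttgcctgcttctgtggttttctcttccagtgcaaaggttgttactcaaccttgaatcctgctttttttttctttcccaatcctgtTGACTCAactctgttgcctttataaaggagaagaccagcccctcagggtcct
Gclm, chr3:122245307-122245556, plus strand: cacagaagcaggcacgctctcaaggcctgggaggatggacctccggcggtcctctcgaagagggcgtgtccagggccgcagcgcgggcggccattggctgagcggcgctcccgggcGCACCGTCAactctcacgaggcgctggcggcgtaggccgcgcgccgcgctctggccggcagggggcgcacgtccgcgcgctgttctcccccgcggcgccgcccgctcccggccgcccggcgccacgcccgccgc
The match began 63 bases before the start in Mmp10, 138 in Prr9, 139 in Trim54 and 52 in Mgst2, and Cd68 held 2, at 149 and 24 bases. The sixth gene, Gpnmb, held its match just after the start. Cd68 and Prr9 encode a lysosomal membrane protein and a proline-rich protein, so the set with a match was not of 1 function. The NRF2 element was not more frequent among the high genes, 9 of 65 (13.8%) against 17.2% over all genes kept, and stood at 11 of 37 (29.7%) in the NRF2 list. The AP-1 match stood at 9 of 37 (24.3%) in the NRF2 list, a share like that of the 65, with Mgst2 in both. TEAD (GGAATG), ATF4 (TGATGNAA) and the CArG box of SRF stood at 15.4%, 9.23% and 4.62% of the 65, beside 14.1%, 2.64% and 1.63% over all. Among genes at least 1.5-fold higher with shikonin, TEPP-46 and shControl, each against vehicle, the AP-1 share was 7.28%, 9.61% and 10.1%, and with vehicle as the control of shPKM2 it was 10.2% of 707. An AP-1 match overlapped an NRF2 element in 2 of the 65, Dusp13 and Procr. A match is a string of letters and not a bound site. Of the 19 immediate early factors, which include the genes of AP-1 itself, 15 were lower and none differed by 1.5-fold, with a median of -0.14. Over all longer genes 0.815% were at least 1.5-fold higher and 0.67% lower, so at that share a list of 19 holds few such genes. Fosl1 differed by 0.30, Fosl2 by 0.12, Jun by -0.11 and Junb by -0.13. Fos, at 1.88 FPKM against 3.10 FPKM (-0.51), and Atf3, at 13 FPKM against 18.6 FPKM (-0.49), lay below the 5th percentile of all genes.

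**Figure D3:**
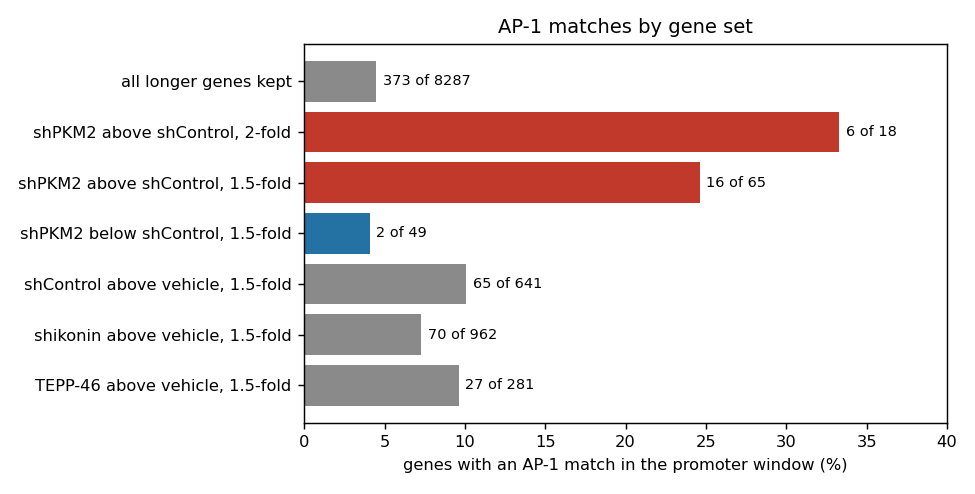
Share of genes whose RefSeq promoter window holds an AP-1 match, in percent, for all longer genes kept (top) and for genes past the stated fold in each comparison; the numbers of genes stand beside the bars. The shares of genes higher in shPKM2 were 33.3% and 24.6%, beside 4.5% over all genes.

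The lysosomal genes Cd68 and Gpnmb and the secreted protease gene Mmp10 were also at the high end. Cd68, a lysosomal membrane glycoprotein best known from macrophages, stood at 12.9 FPKM in shPKM2 and 4.55 FPKM in shControl, and at 2.52, 7.89 and 2.54 FPKM with vehicle, shikonin and TEPP-46. Gpnmb, a membrane glycoprotein of lysosomes and melanosomes, stood at 26.5 FPKM and 10.3 FPKM, but at 1.29 to 1.37 FPKM in the other 3 libraries, so both hairpin libraries were high and shPKM2 the higher. Of the other macrophage markers Cd14 was at -0.28, and Lyz2 was below 0.11 FPKM throughout; their part in the level of Cd68 was not tested. Of 14 lysosomal membrane and proton pump genes 12 were higher, with a median of 0.19; the cholesterol exporter Npc1 (0.52) and the pump subunit Atp6v0c (0.45) followed Cd68 and Gpnmb. Hydrolases had a median of 0.07 over 18 genes, with the cathepsin gene Ctsl at -0.28. The factors Tfeb, Tfe3 and Mitf lay between 0.04 and 0.09.

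Mmp10, a matrix metalloproteinase, stood at 7.30 FPKM with shPKM2 and 1.61 FPKM with shControl, against 2.19, 14.5 and 1.81 FPKM with vehicle, shikonin and TEPP-46. Its relatives did not follow, with Mmp2 at 0.39 and Mmp14 at 0.01. The 6 measured metalloproteinases had a median of -0.07, with 3 higher and 3 lower. Slpi, a secreted protease inhibitor, stood at 32.8 FPKM and 17.8 FPKM, and below 12 FPKM in the other libraries. Amd1, the decarboxylase that commits S-adenosylmethionine to polyamine synthesis, stood at 37.4 FPKM and 16.1 FPKM, while its near copy Amd2 stood at 60.4 FPKM and 69.5 FPKM; the sum of the pair was nearer to equal, and which copy a read came from is uncertain. Prr9 (1.64), Calr3 (0.87) and Ramp3 (0.84), a partner of the calcitonin receptor family, completed the 20 highest together with muscle genes.

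Contractile genes of maturing muscle were higher in shPKM2, at low levels. All 9 measured thick filament and titin-associated genes were higher, with a median of 0.41, and so were 9 of 11 thin filament genes, with a median of 0.25. The medians depended on the low genes: without the filter they were 0.16 and 0.14, and with a pseudocount of 5 FPKM 0.20 and 0.09. Trim54, a microtubule-binding ubiquitin ligase of the sarcomere, stood at 26.8 FPKM in shPKM2 and 11.8 FPKM in shControl, and at 7.09, 27.2 and 6.70 FPKM with vehicle, shikonin and TEPP-46. Car3, the carbonic anhydrase of slow muscle, stood at 27 FPKM and 8.11 FPKM and at 3.21 to 3.41 FPKM in the other 3 libraries. Mylk2, the light chain kinase of skeletal muscle, stood at 18.1 FPKM and 8.66 FPKM and at 3.42 to 4.12 FPKM in the others. For Car3 and Mylk2 the order was shPKM2, then shControl, then the 8 h libraries.

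Most sarcomere genes had smaller differences, and their order against vehicle varied. The thick filament genes had a median of 0.20 in shControl and 0.68 in shPKM2 relative to vehicle, and the thin filament genes -0.34 and -0.09. Acta1, skeletal muscle actin, stood at 21.6 FPKM and 13.8 FPKM but at 25.7 FPKM with vehicle, and Mylpf, a fast light chain, at 27.7 FPKM and 20.9 FPKM with 25.9 FPKM in vehicle. Myl1 (0.56), Myh1 (0.46), Myh3 (0.41) and the troponin Tnni1 (0.48) were higher too. Myog, the factor that drives differentiation, was lower, at 4.41 FPKM against 6.91 FPKM (-0.55), and so was the earlier factor Myf5 (23.1 FPKM against 32.1 FPKM, -0.46), while Myod1 differed by 0.14. Adhesion and surface genes of the myoblast had a median of -0.14. Of 21 listed thick filament genes 12 had means below 1 FPKM, and Ckm stood at 0.22 FPKM and 0.29 FPKM, so the cultures held little mature muscle message in either library. In bulk RNA a change in the share of differentiating cells and a change per cell cannot be told apart.

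**Figure D4:**
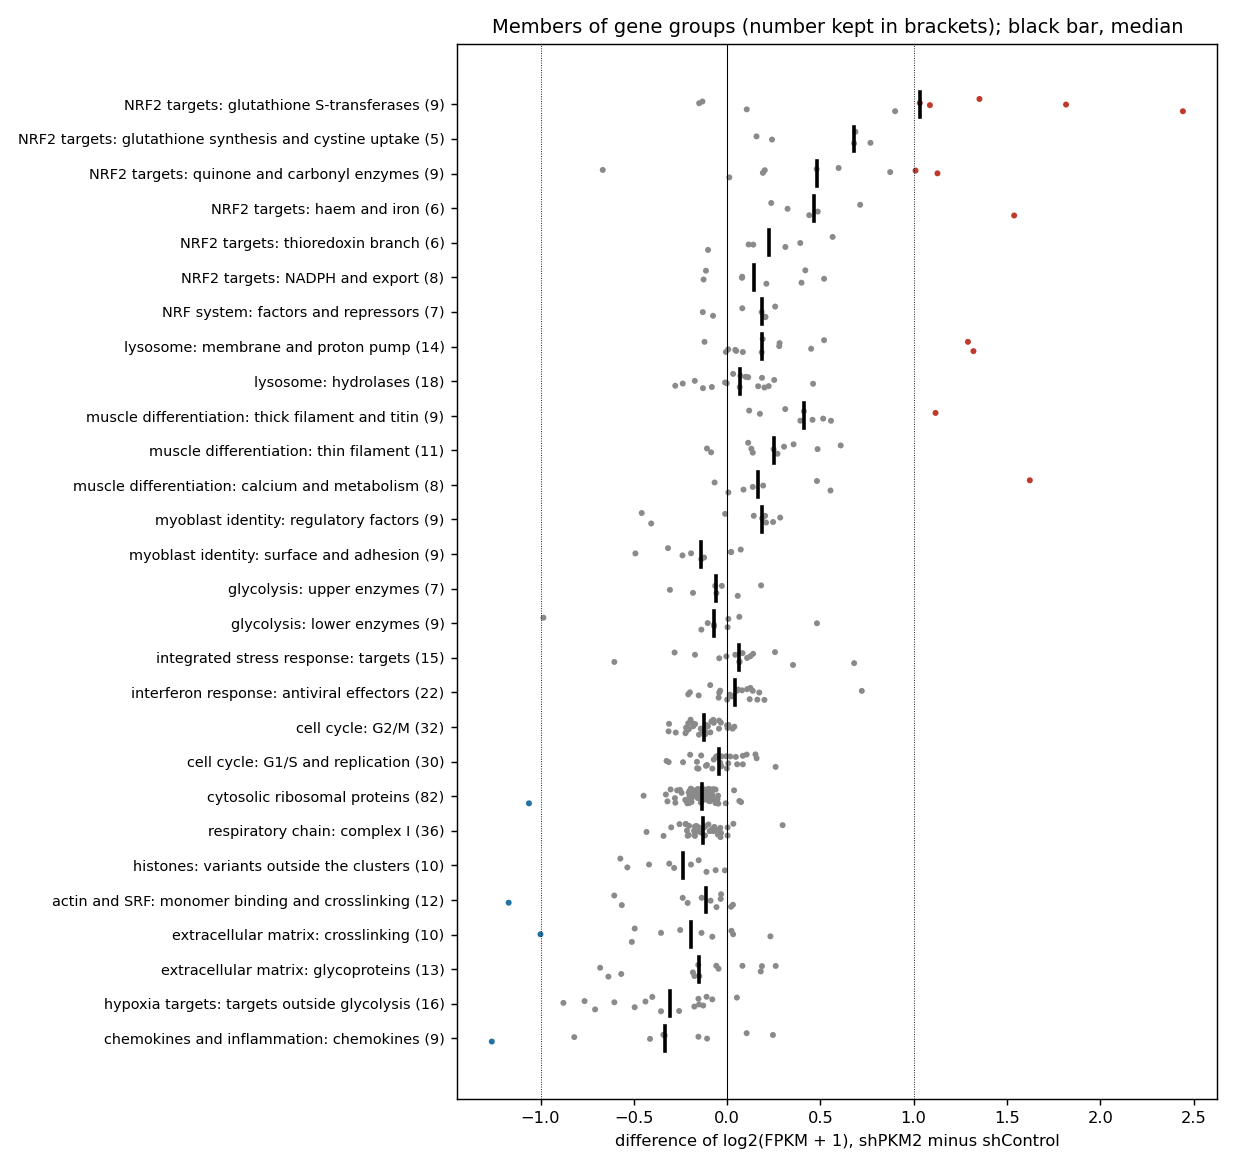
Difference of each measured member of 28 gene groups, as log2(FPKM + 1) in shPKM2 minus shControl; each point is a gene, red and blue past 2-fold (dotted lines), and the black bar is the group's median. Glutathione genes lie to the right, and actin-binding, matrix, hypoxia and chemokine genes to the left.

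The 20 lowest genes were of several kinds. Among them were Eif3j2 (-1.08), Snx18 (-1.02), Rab12 (-0.85) and Acyp1 (-0.80), while the other Eif3j gene, Eif3j1, was at 0.08. Actin-binding and matrix genes stood there singly, with Tmsb4x and Loxl2. Tmsb4x, which encodes thymosin beta 4, the main buffer of actin monomers, stood at 549 FPKM in shPKM2 and 1236 FPKM in shControl, against 1362, 803 and 1122 FPKM with vehicle, shikonin and TEPP-46; shPKM2 was the lowest library. Its relative Tmsb10 stood at 1465 FPKM against 2229 FPKM (-0.60). All 13 measured actin and contractile genes of the cytoskeleton were lower. Their median was -0.12, or -0.06 after each library was rescaled to the same total (TPM). None was past 1.5-fold, a size that 0.815% of all longer genes reached upward and 0.67% downward. At that share a list of 13 holds few such genes. Actb, for cytoplasmic actin, differed by -0.12. The factors Srf (-0.04) and Mkl1 (-0.07) were close to equal.

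Cofactors and targets of the TEAD factors gave single large differences rather than a common one. Vgll2, a TEAD cofactor of muscle, stood at 9.80 FPKM and 25.4 FPKM, and at 4.79, 0.750 and 4.94 FPKM with vehicle, shikonin and TEPP-46, so that shPKM2 lay between shControl and vehicle. Ctgf, a matricellular growth factor, stood at 11.1 FPKM and 25.2 FPKM, against 118, 13.6 and 45.3 FPKM in the other 3, a difference of -1.11. The related target Cyr61 differed by -0.39 and Ankrd1 by -0.37, but the 11 targets had a median of 0.0035, and Yap1 (0.06) lay near equal. The factors themselves went both ways, with Tead2 (-0.48) and Tead1 (-0.24) lower and Vgll4 (0.43) and Tead3 (0.31) higher.

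Matrix genes leaned lower, 33 of 46 measured with a median of -0.14. Loxl2, a lysyl oxidase that crosslinks collagen, stood at 4.44 FPKM in shPKM2 and 9.87 FPKM in shControl, against 10.5, 4.98 and 8.70 FPKM with vehicle, shikonin and TEPP-46. Its relative Lox (-0.51) and the collagen-modifying hydroxylase Plod2 (-0.50) were lower and Loxl4 (0.23) was not. The proteoglycan Dcn stood at 3.06 FPKM and 6.52 FPKM (-0.89), and fibronectin, Fn1, at 112 FPKM and 175 FPKM (-0.64), with tenascin, Tnc, at -0.68. Fn1 stood at 439 FPKM with vehicle, so shControl was already below it. Collagens had a median of -0.12 (-0.07 after the same rescaling), from Col6a1 (-0.51) to Col7a1 (0.50). Plau, the urokinase that starts plasmin proteolysis, stood at 58.2 FPKM and 102 FPKM (-0.80), and its inhibitor Serpine2 was lower too (-0.59).

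Several chemokine and hormone genes that were high in both hairpin libraries were less high in shPKM2. Ccl5, a chemokine, stood at 256 FPKM in shPKM2 and 614 FPKM in shControl, and at 1.57, 2.77 and 1.00 FPKM with vehicle, shikonin and TEPP-46. Ccl2 stood at 203 FPKM and 359 FPKM, and at 13.5, 40.8 and 3.57 FPKM. The peptide hormone gene Cck stood at 245 FPKM and 443 FPKM, and at 11.3 to 19.3 FPKM in the others. For these genes the gap between either hairpin library and vehicle was larger than the gap between the hairpin libraries. Of 9 chemokines measured 7 were lower, with a median of -0.33 (-0.13 without the filter and -0.22 after centring by transcript length), among them Cxcl10 (-0.41), Cxcl1 (-0.34) and Ccl7 (-0.33), while Cx3cl1 was at 0.25. Plac8, at 8.61 FPKM and 20.9 FPKM, was below 0.5 FPKM in the 8 h libraries. Saa3 (-0.72) was lower and the interleukin 1 receptor antagonist Il1rn (0.74) higher.

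Interferon-response genes did not share the lower chemokine levels. The 22 measured antiviral effectors had a median difference of 0.04, though shControl stood above vehicle by a median of 4.63. Ifit1, an antiviral effector that binds foreign RNA, stood at 82.3 FPKM in shPKM2 and 85.0 FPKM in shControl against 0.0703 FPKM with vehicle. Oasl1, at 53.2 FPKM and 31.8 FPKM (0.72), was the 1 gene of 57 on the whole list past 1.5-fold. Over all longer genes 0.815% were at least 1.5-fold higher and 0.67% lower, so at that share a list of this length holds few such genes. Both hairpin libraries differ from vehicle in a hairpin and in time, which cannot be told apart.

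Growth factor genes differed singly. The IGF-binding proteins Igfbp7 (116 FPKM against 198 FPKM, -0.77), Igfbp2 (347 FPKM against 544 FPKM, -0.65) and Igfbp5 (382 FPKM against 531 FPKM, -0.47) were lower, and Igfbp3 (0.51) and the insulin receptor substrate Irs1 (0.51) higher. Igfbp5 stood at 28.2 FPKM with vehicle, so it too was high in both hairpin libraries. Inhba, the activin A chain, stood at 15.2 FPKM and 25.6 FPKM (-0.71), and Socs2, a brake on growth hormone signalling, at 8.94 FPKM and 17.2 FPKM (-0.87).

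Targets of hypoxia factors outside glycolysis were lower in 15 of 16 measured genes, with a median of -0.31. It was -0.17 with a pseudocount of 5 FPKM and -0.16 with a minimum mean of 5 FPKM. Bnip3, a mitophagy receptor, stood at 27.7 FPKM in shPKM2 and 47.7 FPKM in shControl, against 7.22, 11.2 and 10.5 FPKM with vehicle, shikonin and TEPP-46. Pdk1, a kinase that inhibits pyruvate dehydrogenase, stood at 4.65 FPKM and 8.22 FPKM, and at 2.45, 1.73 and 3.8 FPKM. For both genes shPKM2 lay between shControl and vehicle. Ak4 (-0.88), Ddit4 (-0.60) and Car9 (-0.44) were lower as well, and Vegfa (-0.13) and Ero1l (0.05) near equal. The factor genes, Hif1a among them, had a median of -0.17 over 7 genes, and of -0.02 without the filter.

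Glycolysis genes other than Pkm differed little. The upper enzymes had a median of -0.06 and the lower enzymes one of -0.07, with Aldoa at -0.06, Gapdh at -0.07, Pgk1 at -0.14, Eno1 at 0.07 and Ldha at -0.09, whereas each of these 5 was above vehicle in shControl, by 0.44 to 1.04. Gapdh stood at 1739 FPKM in shPKM2 and 1826 FPKM in shControl, so the lower level of Pkm was not shared by its neighbours in the pathway. Pfkl, the liver-type phosphofructokinase, differed by -0.31. Pfkfb4, which sets the level of the phosphofructokinase activator fructose 2,6-bisphosphate, stood at 12 FPKM and 7.12 FPKM (0.68). Around pyruvate, the monocarboxylate carriers Slc16a1 (0.57) and Slc16a3 (-0.52) went opposite ways, and the alanine transaminase Gpt stood at 8.73 FPKM and 5.26 FPKM (0.64).

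Arrestin genes that respond to the level of sugar phosphates were lower. Txnip, an arrestin that restrains glucose uptake and is induced by glucose through MondoA, stood at 9.51 FPKM in shPKM2 and 17.1 FPKM in shControl, against 13.7, 6.11 and 16.3 FPKM with vehicle, shikonin and TEPP-46. Its relative Arrdc4, with a mean below 1 FPKM, stood at 0.202 FPKM and 0.818 FPKM. The MondoA gene Mlxip itself was at 0.15.

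Several other metabolic groups stayed near equal. The 20 TCA cycle genes had a median of -0.0030 and a range from -0.21 to 0.22, and the 7 pentose phosphate genes a median of 0.08. The median of serine and one-carbon genes was 0.07, with none of 13 past 1.5-fold. Targets of the integrated stress response stood at 0.07 and sterol synthesis genes at 0.04. Genes of fatty acid use and lipid droplets were higher in 14 of 19, with a median of 0.15. It was 0.08 with a minimum mean of 5 FPKM and 0.23 with a pseudocount of 0.1 FPKM. Among them were the lipid droplet coats Plin4 (7.32 FPKM against 3.23 FPKM, 0.97) and Plin2 (387 FPKM against 291 FPKM, 0.41). The catalase gene Cat, for the peroxisomal enzyme that removes hydrogen peroxide, stood at 40.5 FPKM and 25.2 FPKM (0.66). Replication genes had a median of -0.04, or 0.02 after rescaling to TPM. G2/M genes leaned lower, 28 of 32, with a median of -0.12, or -0.06 after rescaling to TPM. None of 76 cell cycle genes was past 1.5-fold, and Mki67 stood at 35.7 FPKM in both. Of all longer genes 0.815% were at least 1.5-fold higher and 0.67% lower. At that share lists of 13 and 76 genes hold few such genes.

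Small differences in 1 direction ran through genes with short transcripts. Cytosolic ribosomal protein genes were lower in 79 of 82, with a median of -0.13, and Rps27 was the lowest at 30.4 FPKM against 64.6 FPKM. Rps27 has close copies in the genome, and it stood at 20.7 FPKM with vehicle and 58.0 FPKM with TEPP-46. Complex I genes were lower in 32 of 36 (median -0.13), and the 10 histone variant genes outside the clusters in 10 of 10 (median -0.24), led by H2afx (-0.57), H1f0 (-0.53) and H3f3b (-0.42). Over all longer genes the median difference went from -0.115 for transcripts of 600 to 1000 nt to 0.04 for those of 6000 nt and more. Genes under 1000 nt outside the ribosomal, respiratory and histone lists had a median of -0.09 over 389 genes. The median longest transcript was 1077 nt for cytosolic ribosomal proteins and 1005 nt for the respiratory chain, against 3388 nt over all. For the 17 histone genes measured it was 1630 nt, and their median difference of -0.28 stood beside -0.016 for all genes of 1500 to 2500 nt. The histone median was -0.19 with a pseudocount of 5 FPKM. It was -0.03 without the filter, which 60 of the 77 listed histone genes did not pass. With each difference centred on genes of like length, the medians of ribosomal protein and complex I genes were -0.08 and -0.07, and both were -0.07 after rescaling to transcripts per 1000000. Between shControl and vehicle the same length classes ran the opposite way, from 0.17 to -0.16.

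**Figure D5:**
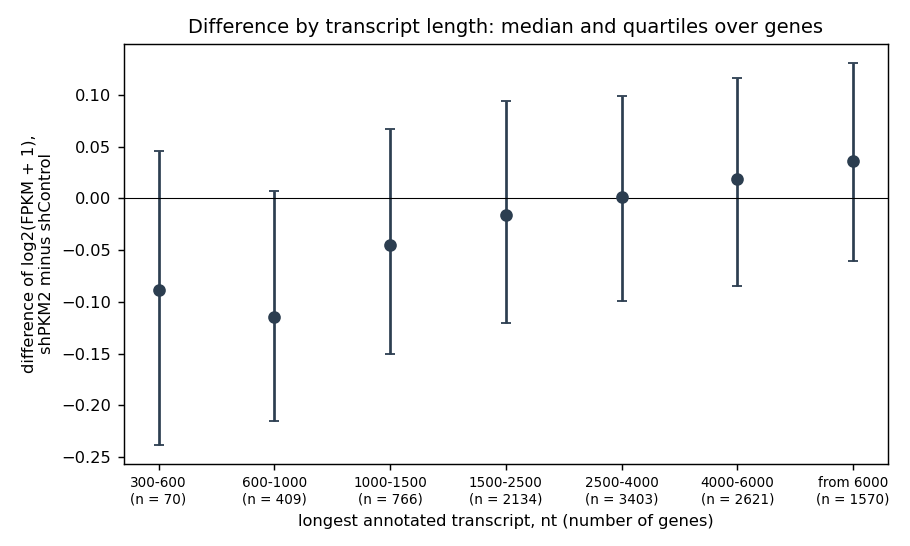
Median (point) and quartiles (bars) over genes of the difference, as log2(FPKM + 1) in shPKM2 minus shControl, by the length in nt of the longest annotated transcript of each gene. The medians go from -0.0881 and -0.115 in the 2 shortest classes to 0.04 in the longest, and the quartiles of neighbouring classes overlap.

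The compounds gave another view of the same genes in libraries that the knockdown difference does not use. Of the 25 longer genes at least 2-fold higher in shPKM2, 9 (36%) were at least 2-fold higher with shikonin than with vehicle, which is 2.11% of the 426 genes that were so and stands beside 3.86% of all longer genes. These were Gsta1, Gm3776, Gm10639, Mgst1, Hmox1, Mmp10, Prr9, Cd68 and Trim54, and none of the 25 was at least 2-fold lower with shikonin, where 3.42% of all longer genes were. Gsta1, Gm3776 and Gm10639 are near copies with an uncertain split of reads, so they are not separate counts. With TEPP-46 2 of the 25 were higher (8.0%, beside 1.18% of all longer genes), Hmox1 and the muscle-type cytochrome oxidase subunit Cox6a2. At 1.5-fold, 42 of 90 genes (46.7%; 3.24% of 1295) were also higher with shikonin, beside 11.7% of all longer genes, and 13 of 90 (14.4%; 3.49% of 373) with TEPP-46, beside 3.38%. Lower by that size were 5 of the 90 (5.56%) with shikonin, beside 13.4%, and 5 (5.56%, or 2.48% of 202) with TEPP-46. Of 11048 longer genes, 202 were lower with TEPP-46, so the overlap with TEPP-46 was not in 1 direction only. Of the 74 genes at least 1.5-fold lower in shPKM2, 18 (24.3%) were lower and 14 (18.9%) higher with shikonin, where 13.4% and 11.7% of all longer genes were. With TEPP-46, 5 of the 74 (6.76%) were lower and 6 (8.11%) higher.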

How the data were processed

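RNA of proliferating C2C12 cells was sequenced in 5 libraries, 1 per condition, from polyadenylated RNA on a NextSeq500, per the labels' protocols. The authors deposited 1 table of FPKM values, 1 column per library, matched here to the conditions by column name. The control column's name carries a number the labels do not explain. Per the submitters' processing notes, the genome build was GRCm38 and the tools were Trim Galore 0.6.0, cutadapt, FastQC and DESeq2 1.26.0. Not given in the sources used here are the aligner, the counting program, the annotation and strand use, so reads from overlapping and antisense genes, or from near copies, cannot be separated.

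FPKM values are not counts, and no count model was used. Depth was estimated from the steps of low values: in 2528 of 3381 low genes (74.8%) all libraries fell on multiples of 1 step (tolerance 0.02), and 546 genes with a single GENCODE M21 transcript gave the scale. The estimates were 22.5 to 31 times 1000000 reads. Counting SEs come from them by the delta method and leave out variation between cultures. Differences are of log2(FPKM + 1), with a pseudocount of 1 FPKM and a minimum mean of 1 FPKM over the 5 libraries. Genes were counted at 2-fold and 1.5-fold, and lists of 47 subjects and 94 roles were described by counts and medians. Genes named were Pkm and Pklr, the 20 highest and lowest of longer named genes whose mean was 5 FPKM or more, protein-coding genes within 250 kb of Pkm, up to 4 members per role with the largest difference, and other members where their role is described. The lists and rules were chosen with earlier results of these data known. The calculation was tested on simulated data. Python 3.11.15, numpy 2.4.6 and pandas 2.3.3 were used. Promoters are RefSeq's (GRCm38.p6), and 8287 of 11048 longer genes had one. Alternatives were another pseudocount, another filter, TPM, median centring, vehicle as control and, added after seeing the data, the 1.5-fold threshold and centring by transcript length.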

Additional observations from a re-analysis of the deposited data

How the results depend on the processing

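The counts of genes at least 2-fold higher and lower, 44 and 25, were 28 and 16 with a pseudocount of 5, 25 and 12 without short RNA genes, 114 and 91 at 1.5-fold and 456 and 91 with vehicle as the control, and the count of higher genes was 28 with a minimum mean of 5 FPKM. Pkm stood at -0.92 after rescaling to TPM (transcripts per 1000000), -0.97 after centring by transcript length and -0.34 with vehicle as the control. Rescaling to TPM moved the median of all genes by 0.06 and turned the median of mitochondrial ribosomal protein genes to 0.013. Vehicle as the control turned the direction of 8 of the 20 lowest genes, Vgll2 (0.90), Ccl5 (6.64), Plac8 (2.72), Rps27 (0.54), Bnip3 (1.80), Cck (4.2), Ccl2 (3.82) and Efhd1 (0.29), and of 54 of 107 list and role medians, among them those of amino acid supply (-0.14), glutathione synthesis (-0.058), chemokines and inflammation (1.24), all hypoxia genes (0.54), hypoxia targets outside glycolysis (0.62), other secreted factors (0.64), immediate early factors (0.063), histones (0.026), the respiratory chain (0.16), complex I (0.15) and complex V (0.22); the cause was not tested. The share of promoters with an AP-1 match among genes at least 1.5-fold higher was 10.2% with vehicle as the control and 18.5% to 30.8% under the other alternatives. Under the other alternatives Pkm and the 20 highest and lowest genes kept their direction, and 22 of the 107 medians changed sign, all of them 0.144 or smaller in size as reported. Of the 51 medians of at least 0.1 in size, 37 moved by over 1.5 times under an alternative other than vehicle, 22 of them after rescaling to TPM, 17 without the filter and 13 with a pseudocount of 5. Other named genes were not recomputed. No paired analysis was possible because each condition had 1 library, and leaving out a replicate was not possible either. The counting error limits genes near 1 FPKM; variation between cultures was not measured.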

Other observations

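A few groups outside the lists drew attention after their values were seen, and they are given as values only. In the Serpinb9 family of granzyme and protease inhibitors on chromosome 13, Serpinb9e stood at 9.24 FPKM in shPKM2 and 2.13 FPKM in shControl, Serpinb9g at 3.85 FPKM and 0.784 FPKM and Serpinb9c at 3.41 FPKM and 0.841 FPKM. In the vehicle library these 3 genes stood at 0.798, 0.398 and 0.322 FPKM, so the order was shPKM2, shControl, vehicle for each. Serpinb9g and Serpinb9c were below 1 FPKM in every library but shPKM2, so they passed the filter only through the library in which they were high. The more abundant members Serpinb9b (104 FPKM against 85.9 FPKM) and Serpinb9 (16.4 FPKM against 16 FPKM) differed by 0.28 and 0.03. The members are similar in sequence, and how reads were split among them is uncertain.

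Several genes best known from myeloid cells were higher at low levels: the lectin Clec4d (5.78 FPKM against 1.97 FPKM), the cytokine receptor chain Csf2rb (5.83 FPKM against 2.04 FPKM), Casp1, which processes interleukin 1 (4.61 FPKM against 2.32 FPKM), and the complement receptor C3ar1 (3.25 FPKM against 1.62 FPKM). Csf2rb stood at 0.0438, 0.216 and 0.0639 FPKM with vehicle, shikonin and TEPP-46, so its passing the filter rested on the hairpin libraries. The defining macrophage gene Emr1 was listed at 0 in both libraries, as were Itgam and C1qa. Of 8 alcohol, aldehyde and xanthine oxidising enzymes and related genes measured, 7 were higher: Adh7 at 31 FPKM against 16.9 FPKM (0.84), Aox1 at 4.58 FPKM against 2.18 FPKM (0.81), Xdh at 18.7 FPKM against 11.3 FPKM (0.68) and Maoa at 47.8 FPKM against 30.7 FPKM (0.62), while Adh5 differed by 0.03 and Cyp1b1, at 6.80 FPKM against 9.80 FPKM, by -0.47. Xdh stood at 0.488 FPKM with vehicle, so it was high in both hairpin libraries, whereas Adh7 stood at 21.6 FPKM with vehicle and 59.1 FPKM with TEPP-46.

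The prolactin family had 4 members that passed the filter, of 30 in the table, and all 4 were higher in both hairpin libraries than with vehicle and higher in shPKM2 than in shControl. Prl2c3 stood at 412 FPKM and 351 FPKM with 153 FPKM in vehicle, Prl2c2 at 273 FPKM and 241 FPKM with 61.6 FPKM, Prl2c4 at 69.2 FPKM and 63.6 FPKM with 25.6 FPKM, and Prl2c5 at 13.8 FPKM and 7.70 FPKM with 3.20 FPKM. These genes are near copies, and which one a read came from is uncertain.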
